A study of Homo sapiens with 2 samples.

Results

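The 66 genes described here are the protein-coding replication-dependent histone genes of the major human histone clusters, 55 on chromosome 6 and 11 on chromosome 1. They were chosen from the RefSeq annotation of GRCh38 as genes between 25500000 and 28500000 on chromosome 6, or between 149500000 and 150000000 on chromosome 1, whose symbols begin with H1-, H2AC, H2BC, H3C or H4C. The annotation held 20037 protein-coding genes on chromosomes 1 to 22, X and Y. The rule itself uses no measured value, but it was set with earlier results of these data known. PHF8 binding had been measured by ChIP-seq, the sequencing of immunoprecipitated chromatin, in RKO cells, an established human colon carcinoma line. The control cells had been transfected with vector and the others with a plasmid that overexpresses APOC2, an apolipoprotein gene, and both were grown in the same medium. Each condition had 1 library, so the spread between replicates is unknown and no test between the conditions was made.

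PHF8 is a histone demethylase that removes methyl groups from lysines of histone H3 and H4. Its PHD finger binds trimethylated lysine on the tail of histone H3, a mark found at the starts of active genes. Replication-dependent histone genes are transcribed in S phase to package newly copied DNA, lie together in clusters, lack introns as a rule, and give messenger RNAs that end in a stem-loop in place of a poly(A) tail. Their transcription takes place in a nuclear structure, the histone locus body, around the coactivator NPAT.

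No histone gene of either cluster had a called PHF8 peak in either library. A gene was counted as occupied when the midpoint of a listed peak lay within 1 kb of its annotated start or end, and a peak near several genes counted for each. The count was 0 of 66 in the vector library and 0 of 66 in the APOC2 library. The share was therefore 0% in both, and the 95% Wilson interval, which treats the genes as independent and covers counting error only, reached 5.50%. Among all 20037 protein-coding genes, 1192 (5.95%) were occupied in the vector library and 4778 (23.8%) in the APOC2 library. Peaks in the APOC2 library without one in the vector library were found at 3607 (18%) of all coding genes and at 0 of the 66 histone genes. The rise in the number of occupied genes between the tables thus included no member of these clusters. The tables list called peaks only, so the count says nothing about signal below the caller's threshold.

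The absence extended to all 5 histone classes. Linker histone H1, which binds the DNA between nucleosomes, was represented by H1-1, H1-2, H1-3, H1-4, H1-5 and H1-6, the last of which is a testis form. For histone H2A, 16 genes were examined: H2AC1, H2AC4, H2AC6, H2AC7, H2AC8, H2AC11, H2AC12, H2AC13, H2AC14, H2AC15, H2AC16 and H2AC17 on chromosome 6, and H2AC18, H2AC19, H2AC20 and H2AC21 on chromosome 1. For its partner H2B there were 17: H2BC1, H2BC3, H2BC4, H2BC5, H2BC6, H2BC7, H2BC8, H2BC9, H2BC10, H2BC11, H2BC12, H2BC13, H2BC14, H2BC15 and H2BC17 on chromosome 6, with H2BC18 and H2BC21 on chromosome 1. Histone H3 was encoded by 13 of the genes: H3C1, H3C2, H3C3, H3C4, H3C6, H3C7, H3C8, H3C10, H3C11 and H3C12 on chromosome 6, and H3C13, H3C14 and H3C15 on chromosome 1. Histone H4 was encoded by 14: H4C1, H4C2, H4C3, H4C4, H4C5, H4C6, H4C7, H4C8, H4C9, H4C11, H4C12 and H4C13 on chromosome 6, and H4C14 and H4C15 on chromosome 1. With 0 occupied genes in each class, on each chromosome and in each library, no class or cluster could be ranked above another. The 13 histone pseudogenes in the same windows had no peak either.

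Promoter sequences are shown to set histone genes without a peak beside other genes that had one. These other genes were not matched to the histone genes in length or base composition. Entries of 300 bases, of which 250 lie before the start site and 50 from it on, were taken from RefSeq (GRCh38.p14) and were at hand for 61 of the 66 genes. H4C16 on chromosome 12 encodes histone H4 outside the clusters and had a peak in both libraries. H4C2 (chromosome 6) and H4C14 (chromosome 1) are H4 genes of the clusters, and H2BC11 is an H2B gene of chromosome 6. ZKSCAN8, a zinc finger gene, lies inside the chromosome 6 window and had a peak in the APOC2 library. Sequences run 5′ to 3′ on the gene's strand, and capitals mark CG dinucleotides. They span, in the order printed, chr12:14771082-14771381 (minus strand), chr6:26027234-26027533 (minus), chr1:149832407-149832706 (plus), chr6:27132746-27133045 (minus) and chr6:28141633-28141932 (plus).
H4C16: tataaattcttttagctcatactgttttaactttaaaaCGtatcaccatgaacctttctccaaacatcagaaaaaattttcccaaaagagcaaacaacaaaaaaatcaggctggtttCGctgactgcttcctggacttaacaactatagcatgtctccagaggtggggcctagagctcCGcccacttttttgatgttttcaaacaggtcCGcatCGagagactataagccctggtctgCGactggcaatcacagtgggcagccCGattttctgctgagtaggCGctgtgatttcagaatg
H4C2: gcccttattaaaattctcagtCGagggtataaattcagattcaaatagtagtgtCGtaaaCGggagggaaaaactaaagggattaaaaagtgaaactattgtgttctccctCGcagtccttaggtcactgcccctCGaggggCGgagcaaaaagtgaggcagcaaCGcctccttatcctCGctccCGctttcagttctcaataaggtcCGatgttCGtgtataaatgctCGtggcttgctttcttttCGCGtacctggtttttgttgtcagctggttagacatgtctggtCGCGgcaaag
H4C14: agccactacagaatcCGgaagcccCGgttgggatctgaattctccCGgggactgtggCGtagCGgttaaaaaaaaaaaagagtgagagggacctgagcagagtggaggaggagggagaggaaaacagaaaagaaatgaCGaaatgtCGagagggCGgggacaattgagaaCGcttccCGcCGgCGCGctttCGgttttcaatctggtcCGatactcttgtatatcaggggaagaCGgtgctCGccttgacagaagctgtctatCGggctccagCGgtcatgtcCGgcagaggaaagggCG
H2BC11: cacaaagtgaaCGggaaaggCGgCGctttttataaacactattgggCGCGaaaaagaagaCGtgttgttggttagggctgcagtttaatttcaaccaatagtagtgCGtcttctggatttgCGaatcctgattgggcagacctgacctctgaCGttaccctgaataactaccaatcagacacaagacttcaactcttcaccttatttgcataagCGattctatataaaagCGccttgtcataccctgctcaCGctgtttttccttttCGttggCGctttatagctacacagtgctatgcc
ZKSCAN8: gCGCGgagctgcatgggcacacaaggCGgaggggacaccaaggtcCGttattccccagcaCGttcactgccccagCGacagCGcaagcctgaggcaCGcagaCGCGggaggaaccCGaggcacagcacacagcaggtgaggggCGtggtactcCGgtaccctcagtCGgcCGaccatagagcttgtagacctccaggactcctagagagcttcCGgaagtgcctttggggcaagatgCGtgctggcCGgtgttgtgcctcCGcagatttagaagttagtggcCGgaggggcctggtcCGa

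These promoters differed in base composition. The H4C16 promoter had a GC content of 43.3% and 8 CG dinucleotides. The H4C16 peaks, from 14770829 to 14771052 (vector) and from 14770790 to 14771080 (APOC2), lay inside the gene. They did not overlap the printed stretch. H4C2 had 46.7% and 16, H4C14 had 54.7% and 21, and H2BC11 had 44.3% and 14. ZKSCAN8 had 63.7% and 21. The number of CG dinucleotides was thus higher at these 3 histone promoters of the clusters than at H4C16. These 3 do not stand for all members: the median over the 61 histone promoters was 11, with class medians from 8 (H3) to 16 (H4).

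The histone genes fell into 5 groups when neighbours more than 100 kb apart were separated. On chromosome 6 the first group held only the pair of H2AC1 and H2BC1, which encode testis forms, at 25726063 to 25727345. The second was the largest, with 32 genes from H1-1 to H4C8 at 26017032 to 26285534, including 5 of the 6 H1 genes. The third held 5 genes from H2BC11 to H2AC12 at 27132316 to 27147562, and the fourth 16 genes from H2BC13 to H2BC17 at 27807479 to 27893891. All 11 genes of chromosome 1, from H2BC18 to H2AC21, formed the fifth, at 149782689 to 149887965. The map of both windows shows the genes of each class above the called peaks.

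**Figure D1:**
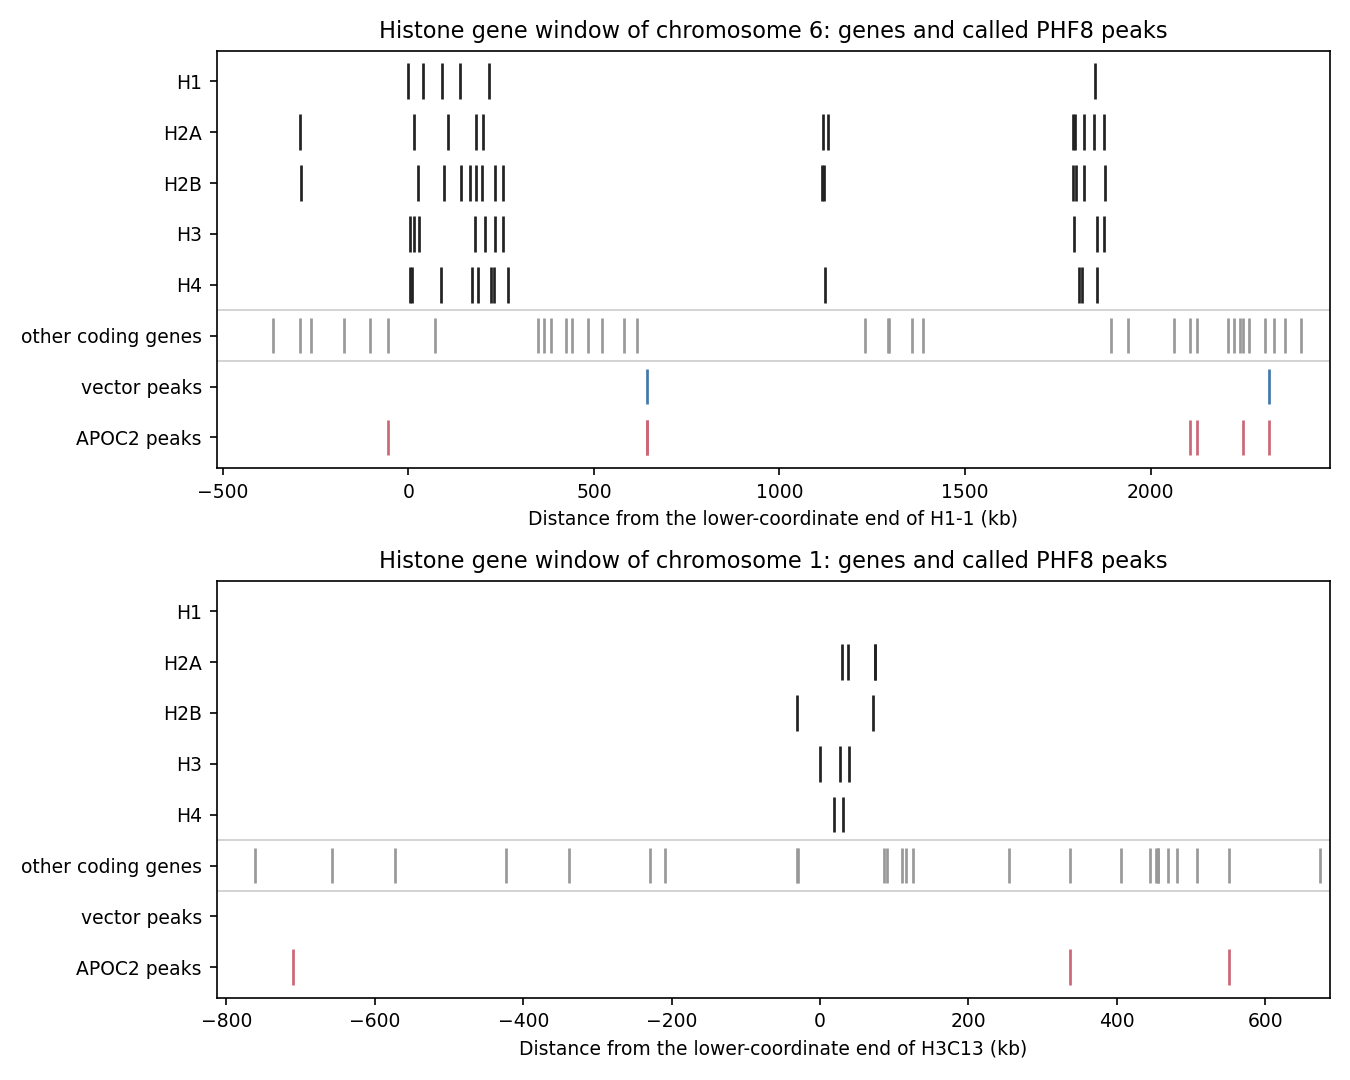
Map of the histone windows of chromosome 6 (top) and of chromosome 1 with 500 kb added on each side (bottom), with distance in kb from the lower-coordinate end of H1-1 or H3C13 on the horizontal axis. Each tick is a gene (H1, H2A, H2B, H3 or H4 in black, other coding genes in grey) or the midpoint of a called peak (vector in blue, APOC2 in red); no peak falls among the histone genes of any of the 5 groups.

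The number of peaks in the windows was then counted. The chromosome 6 window of 3 Mb held 2 of the 146 vector peaks and 7 of the 381 APOC2 peaks of that chromosome. These are 0.667 and 2.33 peaks per Mb, beside 0.874 and 2.24 per Mb between the first and last peak of the chromosome. The APOC2 density per Mb of the window was thus close to that of its chromosome, but it takes no account of gene number. By gene, 0 of 55 histone genes and 5 of 35 other coding genes of this window were occupied in the APOC2 library. The share of all coding genes of chromosome 6 was 21.4%. The chromosome 1 window of 0.5 Mb held 0 of 344 and 0 of 822, where the chromosome had 1.39 and 3.32 peaks per Mb. The lowest summit pileup, that is, count of overlapping fragments, among the APOC2 peaks of the chromosome 6 window was 9, at ZSCAN31. Peaks of low pileup were thus called in that window, though this one lay outside the groups of histone genes. The lowest pileups in the whole tables were 7.92 (vector) and 6 (APOC2).

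Distances from the histone genes to the nearest peak were long. Measured from the nearer gene end to the peak midpoint, they ran from 54.3 to 487 kb with a median of 262 kb in the APOC2 library. In the vector library they ran from 374 to 2644 kb with a median of 503 kb. The gene closest to an APOC2 peak was H1-1, at 54.3 kb, followed by H3C1 at 57.7 kb and H4C1 at 58.9 kb. All 3 owed this to the same peak at the start of TRIM38, a ubiquitin ligase gene. At the other end of that group, H4C8 lay 322 kb from an APOC2 peak and 374 kb from a vector peak, the shortest vector distance of any member.

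In the remaining groups the nearest gene to an APOC2 peak lay farther away than H1-1. H2AC1 and H2BC1 were 236 and 235 kb away, and the group from H2BC13 to H2BC17 lay 231 to 317 kb away. The genes from H2BC11 to H2AC12 were the most isolated in the APOC2 library, at 472 to 487 kb, and nearly as far in the vector library, at 473 to 488 kb. In both libraries their nearest peaks lay at the start of ZNF322. On chromosome 1 the distances were 262 to 338 kb in the APOC2 library and 2540 to 2644 kb in the vector library. Every member lay nearer to a peak in the APOC2 library, which also had more peaks in all (8928 against 4015).

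**Figure D2:**
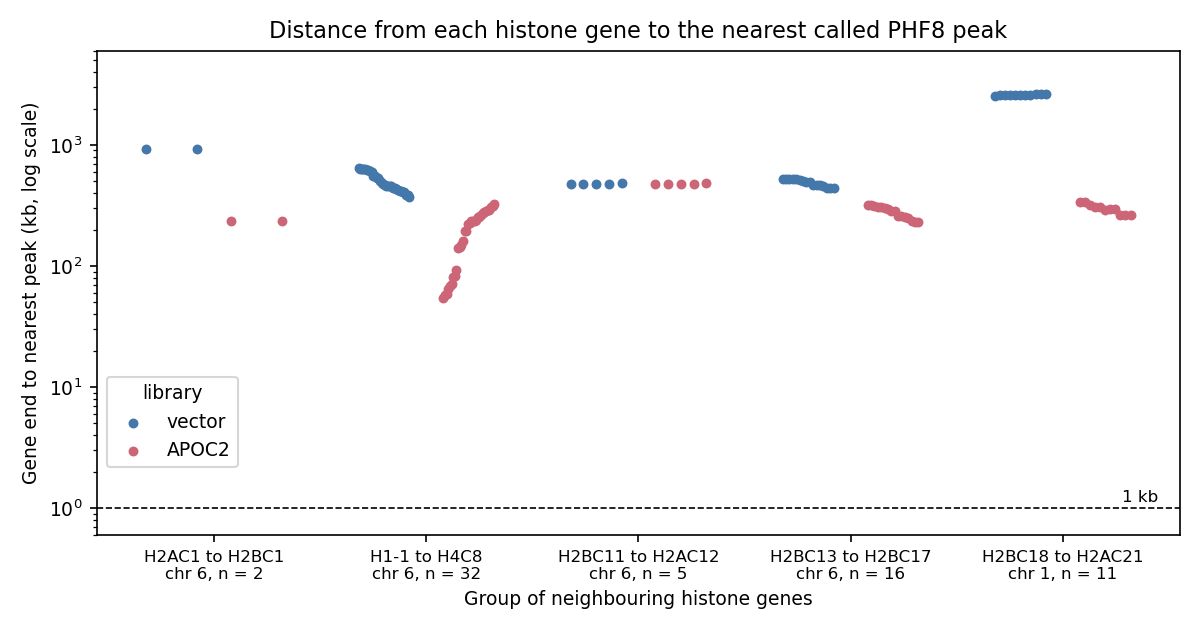
Distance from each of the 66 histone genes to the nearest called peak in kb (log scale), by group of neighbouring genes, for the vector (blue) and APOC2 (red) library; points within a group stand in genomic order. Every point lies far above the 1 kb limit of the occupancy rule (dashed line), from 54.3 kb in the APOC2 library and from 374 kb in the vector library.

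The width of the window does not matter for the histone genes up to the shortest of these distances, 54.3 kb. A window of 50 kb around each gene end, chosen after the data were seen, therefore gave 0 of 66 in either library, where the share of all coding genes was 14% (vector) and 47.1% (APOC2). With 10 kb the coding gene shares were 7.98% and 30.9%, and with 3 kb 6.58% and 26.2%, beside the same 0 histone genes. A peak overlapped the body of 5.83% and 23.3% of coding genes and of 0 histone genes. The last measure bears on the 8 members annotated as longer than 1 kb, H2BC4, H2BC5, H3C4, H3C6, H2BC12, H2BC18, H4C15 and H2BC21, the longest of which spans 29682 bp.

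The stretches between neighbouring peaks that held the histone genes were measured. In the APOC2 library, the 32 genes from H1-1 to H4C8 fell in a peak-free stretch of 696 kb, from 25963015 to 26659378, with 41 coding genes in all. Ranked by the number of coding genes inside, it was the 12th of the 8904 stretches between neighbouring APOC2 peaks, with the 32 members making up most of that number, and by length it was the 1012th. The next stretch, of 1464 kb between the starts of ZNF322 and ZSCAN16, held 29 coding genes, of which 21 were the members from H2BC11 to H2BC17, and ranked 36th by genes and 510th by length. The stretch on chromosome 1 was 1046 kb long and held 25 coding genes, 11 of them histone genes, with ranks of 48 and 700. H2AC1 and H2BC1 lay in a stretch of 683 kb with 8 coding genes, with ranks of 431 and 1026. These stretches thus stood out less by their length than by the number of genes in them, to which the histone genes themselves contributed. In the vector library the stretches were longer: 34 histone genes of chromosome 6 lay in 1 of 19069 kb and those of chromosome 1 in 1 of 8810 kb with 231 coding genes, so the vector table was sparse around the clusters as a whole.

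The other genes of the windows were then examined. Of 43 coding genes there that are not replication-dependent histone genes, 1 (2.33%) was occupied in the vector library and 5 (11.6%) in the APOC2 library, against 5.95% and 23.8% of all coding genes. All 5 were on chromosome 6, where 3.24% and 21.4% of all coding genes were occupied. ZNF322, a zinc finger gene whose vector peak was the one nearest to H4C8, was the only one of these 43 with peaks in both libraries within 1 kb of a gene end. Its vector peak, from 26659321 to 26659773, had a fold enrichment over local background of 5.94 and a pileup of 28.7 (95% Poisson interval 19.4 to 41.6, counting error only). The APOC2 peak that overlapped it, from 26659379 to 26659731, had 6.47 and 27, and a second APOC2 peak beside it, from 26659888 to 26660293, had 10.4 and 18 (10.7 to 28.4). At the shared site the pileup of the APOC2 library was within the counting interval of the vector pileup. The depth of the libraries is unknown, so this does not show equal binding. A peak inside ZSCAN31, more than 1 kb from its ends, was also listed in both libraries, with fold enrichments of 7.47 (vector) and 5.24 (APOC2) and pileups of 14.8 and 9.

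The other coding genes of the windows that were occupied in the APOC2 library alone were TRIM38, ZSCAN16, ZKSCAN8 and ZSCAN26. ZKSCAN8 had a fold enrichment of 9.94 and a pileup of 36 (25.2 to 49.8), and TRIM38, the gene next to the H1-1 group, had 5.77 and 10 (4.80 to 18.4). ZSCAN16 and ZSCAN26 had fold enrichments of 3.34 and 4.62, each with a pileup of 19. In the chromosome 1 window, none of the 8 other coding genes had a peak. The histone genes were therefore not the sole peak-free genes in their neighbourhood.

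**Figure D3:**
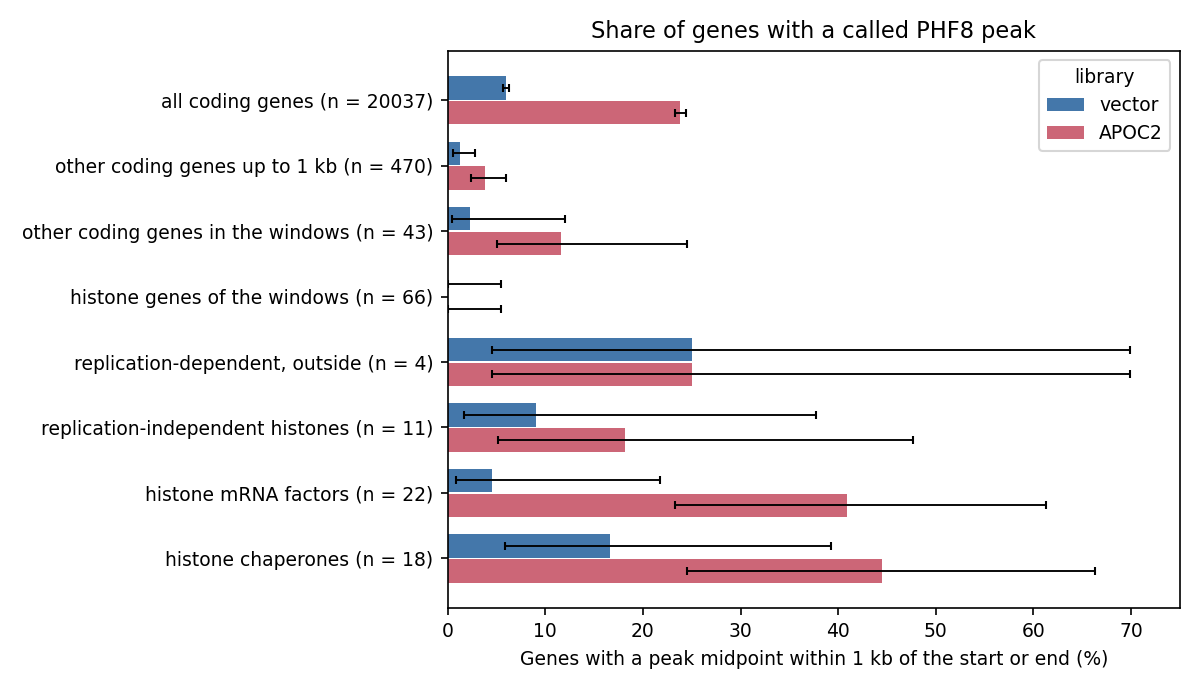
Share of genes with a peak midpoint within 1 kb of the start or end (%) in the vector (blue) and APOC2 (red) library; whiskers are 95% Wilson intervals and n is the number of genes. The 66 histone genes of the windows stand at 0% in both libraries, against 5.95% and 23.8% of all coding genes.

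Gene length moved with occupancy. The histone genes had a median length of 494 bp (386 to 29682 bp), and 58 of the 66 were at most 1 kb long. Among 470 other coding genes of at most 1 kb, 6 (1.28%, Wilson interval 0.586 to 2.76%) were occupied in the vector library and 18 (3.83%, 2.44 to 5.97%) in the APOC2 library. Among longer coding genes the shares were 6.08% and 24.4%. A short gene offers a smaller search area, since the windows around its start and end overlap. With the start site alone, the shares at short genes were 0.852% and 3.98%, against 5.74% and 24.9% at longer ones. The share of occupied short genes is thus closer to the 0% of the histone genes than the share of all genes is, and the part of gene length in the result was not tested.

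Base composition moved with occupancy as well. The median GC content of the 61 histone promoters was 43.0%, with a range of 36.3 to 58%, and the median of all 15843 coding promoters was 62.7%. By class the medians were 49.5% for H1, 42.0% for H2A, 42.0% for H2B, 41.3% for H3 and 48% for H4. When all coding promoters were divided into quartiles of GC content, 57 of the 61 histone promoters fell into the lowest and the other 4 (H1-1, H1-4, H4C14 and H4C15) into the next. In the lowest quartile 2.01% of coding genes had a peak at the start in the vector library and 8.22% in the APOC2 library. In the highest these shares were 9.11% and 38.0%. Over all promoters they were 5.61% and 24.3%.

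The CpG ratio, the number of CG dinucleotides over the number expected from the C and G content, gave another picture. Its median was 0.774 at the histone promoters and 0.763 at all coding promoters, and 31 of the 61 histone promoters were in the upper 2 quartiles. In these quartiles 34.8% and 40.04% of coding genes had a peak at the start in the APOC2 library. The first and second quartiles, with 4 and 26 histone promoters, had APOC2 shares of 1.77% and 20.7%. The 28 histone promoters that combined the lowest quartile of GC content with the upper 2 of CpG ratio numbered 14 in each of these 2. Among the coding promoters of that composition that were not members, 71 of 220 (32.3%, Wilson interval 26.4 to 38.7%) in the third quartile of CpG ratio and 93 of 238 (39.1%, 33.1 to 45.4%) in the fourth had an APOC2 peak at the start. The corresponding vector shares were 10% and 9.24%. Coding promoters of low GC content and high CpG ratio thus had APOC2 shares above the 24.3% of all coding promoters. The count at the 28 histone promoters was 0 in both libraries. Within the lowest quartile of GC content, the first and second quartiles of CpG ratio held 4 and 25 histone promoters. There 1.77% and 13.9% of the coding promoters that were not members had an APOC2 peak at the start. The other promoters were not matched to the histone promoters in gene length or in GC content within the quartile. The part of base composition in the result was not tested.

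**Figure D4:**
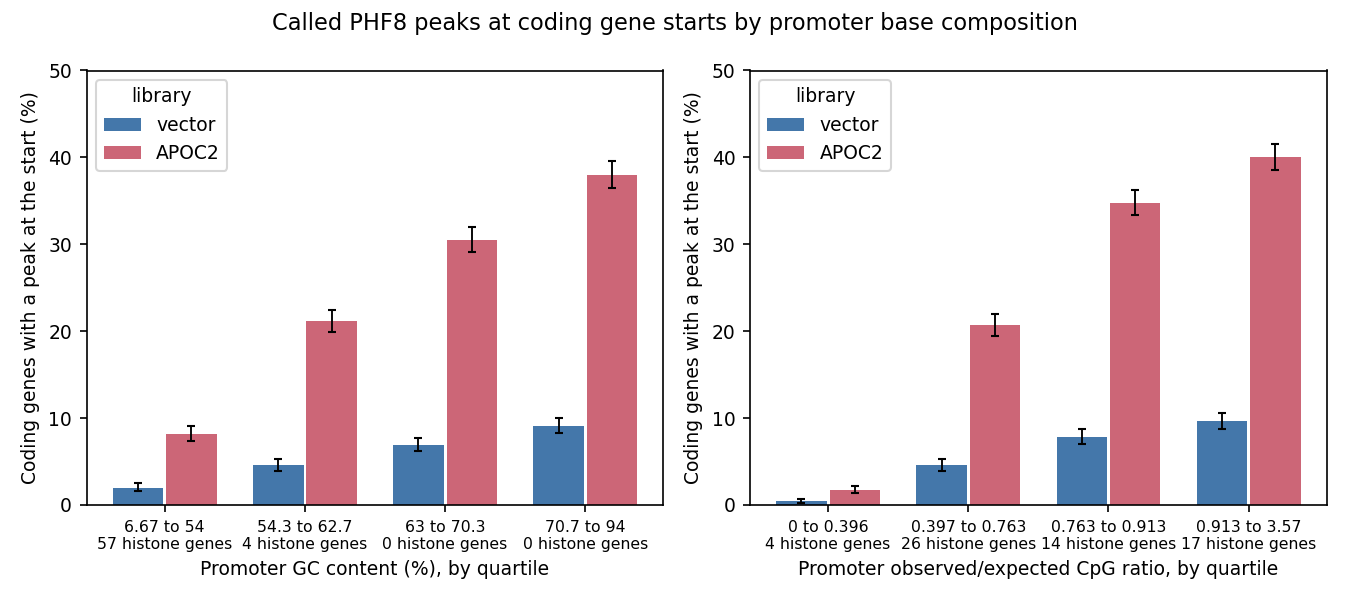
Share of 15843 coding genes with a peak midpoint within 1 kb of the start site (%) by quartile of promoter GC content (left) and of the CpG ratio (right), for the vector (blue) and APOC2 (red) library with 95% Wilson intervals; the number of histone genes in each quartile is given below it. Occupancy rises with both measures, and 57 of 61 histone promoters lie in the lowest GC quartile while 17 lie in the highest CpG ratio quartile.

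The histone promoters shared sequence elements that are known for this gene family, counted here on both strands of the 300 bases. A TATA box (TATAAA) was found in 41 of 61 (67.2%) against 9.63% of all coding promoters. With the first base of TATAAA 20 to 40 bases before the start site on the gene's strand, the numbers were 34 of 61 (55.7%) against 3.64%. A CCAAT box (CCAAT) was found in 52 (85.2%) against 36.4%, in all H1, H2A, H2B and H3 promoters and in 3 of 12 H4 promoters. The octamer (ATTTGCAT), the binding sequence of the POU2F1 factor that acts on H2B genes, was found in 14 of 17 H2B and 11 of 15 H2A promoters, against 1.70% of all coding promoters. Many H2A and H2B genes lie head to head, so that their entries can overlap and hold the same match. The H1 box (AAACACA) was found in all 6 H1 promoters and in 4.24% of all coding promoters. In the printed sequences, H2BC11 had the TATA box, the CCAAT box and the octamer, H4C2 had TATAAA 31 bases before the start site, and H4C14 had none of the 4. The only TATAAA of H4C16 was at the first bases of the entry, 250 before the start site.

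Occupancy at all coding genes differed with some of these elements. Of 1525 coding promoters with TATAAA, 2.30% had a vector peak and 8.98% (Wilson interval 7.65 to 10.5%) an APOC2 peak at the start, against 5.96% and 25.96% (25.2 to 26.7%) of those without it. For the octamer the shares were 3.35% and 12.6% (9.19 to 17.1%) with it, and 5.65% and 24.5% (23.9 to 25.2%) without it. For the H1 box they were 2.53% and 12.1% (9.81 to 14.7%) with it, and 5.75% and 24.9% (24.2 to 25.6%) without it. For the CCAAT box they were 5.40% and 24.1% with it, and 5.73% and 24.5% without it. At least 1 of the TATA box and the octamer was present in 48 of the 61 histone promoters. The APOC2 share was therefore lower with than without the TATA box, the octamer or the H1 box. The CCAAT box, the most frequent element of the histone promoters, came with nearly equal shares. The shares with an element include the histone promoters themselves, all without a peak. They were 41 of the 1525 promoters with TATAAA, 26 of the 269 with the octamer and 9 of the 672 with the H1 box. GC content was not held fixed in these comparisons, and the part of these elements in the result was not tested.

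Some members have promoters that are identical, or nearly so, to that of another member, which can make short reads hard to place. The promoters of H4C14 and H4C15 were identical over all 300 bases. Those of H2AC18 and H2AC19 shared a run of 299 bases, and those of H3C14 and H3C15 a run of 296. These 6 genes are 6 of the 11 on chromosome 1. On chromosome 6, H4C11 and H4C12 were identical at 98.3% of positions, but their longest shared run was 126 bases. H3C4 and H2AC7 are annotated with the same start site, so their entries are the same stretch of the genome and not copies. How reads that map to several places were treated is not given in the sources used here, and the part of such copies in the result was not tested. No other pair of the 61 promoters, each read on its gene's strand, shared a run of 100 bases or more.

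Histone genes outside the clusters give a reference within the family. Of 4 replication-dependent genes elsewhere, H4C16 (chromosome 12, 14770720 to 14771131) had a peak in both libraries, and H2AC25, H2BC26 and H3-4 had none. The H4C16 peaks lay inside the gene, with fold enrichments of 3.96 (vector) and 4.003 (APOC2) and a log2 ratio of APOC2 over vector of 0.02. They also lay within 1 kb of an end of LOC105369669. Their pileups were 14.8 (8.40 to 24.7) and 13 (6.92 to 22.2), so the counting intervals overlapped almost entirely. With the depth of the libraries unknown, this overlap does not show equal binding. The promoter of H4C16 shared no run longer than 17 bases with those of the 12 H4 genes in the clusters, the longest with H4C4. H4C16, at 412 bp, was in the range of member lengths. A peak at this single gene, shared with another annotated gene, does not separate length, class or base composition from the absence at the members.

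Replication-independent histone genes supply variant histones through the whole cell cycle. Of 11 such genes, 1 was occupied in the vector library and 2 others in the APOC2 library. H3-3A, which encodes variant H3.3, had a fold enrichment of 5.57 and a pileup of 37 (26.1 to 51.0). MACROH2A1, which encodes an H2A variant with a large added domain, had 4.10 and 27 (17.8 to 39.3). H2AX, whose product is phosphorylated at DNA breaks and which is also transcribed with replication, had a vector peak and no APOC2 peak, with a fold enrichment of 4.73 and a pileup of 37.6 (26.9 to 52.2). The APOC2 share of this list, 18.2% (5.14 to 47.7%), had an interval that included the 23.8% of all coding genes.

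Genes that act on histone messenger RNAs and histone proteins were examined next. Of 22 factors of histone gene transcription and messenger RNA processing, 1 had a peak in the vector library (4.55%, 0.807 to 21.8%) and 9 in the APOC2 library (40.9%, 23.3 to 61.3%). NPAT, the coactivator of the histone clusters, had an APOC2 peak and no vector peak, with a fold enrichment of 6.01 and a pileup of 17 (9.90 to 27.2). This peak also lay within 1 kb of the start of ATM, its neighbour in the opposite direction, as the CDK2 peaks did of an end of PMEL. CDK2, the kinase that phosphorylates NPAT, went from a fold enrichment of 5.15 (vector) to 10.7 (APOC2), with pileups of 24.7 (16.2 to 36.9) and 39 (27.7 to 53.3). NCBP1, a subunit of the nuclear cap-binding complex, had 7.85 and CSTF3, a 3′ end processing factor, 5.15, both in the APOC2 library alone. The NCBP1 peak also lay within 1 kb of an end of TSTD2. SLBP, which binds the stem-loop of histone messenger RNAs, had no peak in either library.

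Of 18 histone chaperones, which carry histones to and from DNA, 3 were occupied in the vector library and 8 in the APOC2 library (44.4%, 24.6 to 66.3%). RBBP4 went from a fold enrichment of 5.61 to 9.94 and CHAF1B, a subunit of the assembly factor that follows the replication fork, from 3.54 to 7.01. NASP had 5.18 and HIRA, the chaperone of variant H3.3, 4.84, in the APOC2 library alone. The RBBP4 peaks were shared with ZBTB8OS and the HIRA peak with MRPL40 in the same way. The clusters with 0 occupied histone genes thus stood beside fixed lists of 22 and 18 related genes with 9 and 8 occupied genes in the same APOC2 table. The lower ends of the Wilson intervals of these lists, 23.3% and 24.6%, lay near the 23.8% of all coding genes.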

How the data were processed

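Per the submitters' processing notes, Bowtie2 2.2.9, MACS2 2.0, HOMER and build hg38 were used; the control library, thresholds and treatment of duplicate or multiply mapped reads are not given in the sources used here. Per the file headers, the deposited tables of the 2 libraries give the summit signal as fragment pileup and the fold enrichment (a ratio); the deposited −log10 p and −log10 q columns had lost their names and were read from their place. Peak names run without gaps to 4015 (vector) and 8928 (APOC2). Depth is unknown. Peaks were assigned to RefSeq genes (GRCh38.p14) with Python 3.11.15 and pandas 2.3.3, by code tested on simulated peaks. Shares carry 95% Wilson and pileups, rounded to whole fragments, 95% exact Poisson intervals, for counting error only. The members and lists were chosen with earlier results of these data known. Named genes were all members and, by APOC2 fold enrichment, at most 4 genes per list; the neighbours in the windows, H2AX, SLBP, the genes of printed promoters and the shares by length, base composition and motif were chosen after the peaks were seen. The planned medians of fold enrichment and log2 ratio at members could not be computed, because no member had a peak. 1 gene of a fixed list is not reported here.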

Additional observations from a re-analysis of the deposited data

How the results depend on the processing

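The number of occupied histone genes was recomputed under 10 alternatives in each library and for the APOC2 library alone, and all 30 values were 0. Of these, 6 widened or shifted the rule (windows of 3, 10 and 50 kb, overlap with the gene body, the summit in place of the midpoint, and the 13 histone pseudogenes added). The other 4 could only remove genes or peaks (a fold enrichment of at least 5, a q-value of at most 0.001, the 4015 top-ranked peaks of each library, and the start site alone at 61 genes), so their 0 was fixed by the main count. The 0 of the wider windows, the summit and the gene body was likewise fixed by the distance of at least 54.3 kb from each histone gene to the nearest peak, so these values are no independent sign of stability. The windows of 10 and 50 kb and the added pseudogenes were chosen after seeing the data. Alternatives planned for the log2 ratio and the fold enrichment of member peaks gave no value, since there were no such peaks. No paired analysis was possible because there was 1 library per condition and no test. The tables hold called peaks only, so a signal under the threshold was not detectable, and the depth of the libraries is unknown.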

Other observations

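The chromosome 6 window also holds 104 transfer RNA genes of the annotation, which are transcribed by RNA polymerase III. None of them had a peak within 1 kb of the start or end in either library, and none of the 3 in the chromosome 1 window had one. Among all 443 annotated transfer RNA genes, 9 (2.03%) were occupied in the vector library and 19 (4.29%) in the APOC2 library. The 30 long non-coding RNA genes and 65 pseudogenes of the chromosome 6 window had no peak in either library, nor had the 5 and 9 of the chromosome 1 window.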
